A study of Mus musculus with 54 samples.

Results

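Gene expression in Sox9-EGFP Low crypt cells of conventionalized mice was compared with that in the same fraction of chow-fed mice, 4 libraries against 4 of the 54 samples in the series. The table lists 48440 entries, and the genes described are the 17941 named ones with a mean of at least 10 normalized counts over these 8 libraries. The series is about miR-375 in the small intestine and also holds germ-free mice and mice on other diets. The comparison asks what differs between mice colonized after germ-free rearing and mice that had a microbiota throughout. Both groups are C57BL/6J mice per the labels, and both gave small intestine crypt cells sorted for low fluorescence of Sox9-EGFP, a reporter of the transcription factor Sox9. The chow group is labelled by its diet alone. The conventionalized group carries that word alone, with no diet, donor, age, sex or time since colonization. That the chow mice had a conventional microbiota is read from the design text and not from a label of their own, and colony, batch and group cannot be told apart.

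Intestinal crypts hold stem cells that renew the epithelium and give rise to absorptive enterocytes and to secretory cells, among them goblet, Paneth, enteroendocrine and tuft cells. Sox9-EGFP Low cells are known as a fraction rich in stem cells. Conventionalization means that germ-free animals, raised without microbes, are given a microbiota, and the epithelium is known to answer microbes with antimicrobial proteins such as those of the Reg3 family and with genes of antigen presentation.

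The 8 libraries held an estimated 10.4 to 21.8 M reads each, and 14833 to 21608 genes stood at 10 or more normalized counts. Both deepest libraries (chow replicate 2 and conventionalized replicate 4) lay at one end of the leading principal component, which held 50.4% of the variance, and both shallowest ones (conventionalized replicates 2 and 3) at the other. The next component (16.9%) had all chow libraries above 0 and all conventionalized libraries below it. The animal numbers in the column names do not interleave: all chow animals have lower numbers than all conventionalized ones, and chow replicates 1 and 2 stand apart in number from replicates 3 and 4. Nothing in the labels says that the mice came from separate litters or cages, so p-values measure the spread between these samples. Sox9 was present in all 8 libraries at 4303 to 6705 normalized counts in chow and 3098 to 6672 in conventionalized mice (log2 difference -0.04, 95% interval -0.60 to 0.52, with the sign turning without chow replicate 3, without conventionalized replicate 1 or with chow replicates 1 and 2 alone). The stem cell marker Olfm4 stood at 38314 to 79691 and 38538 to 81897.

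The labels of 1 mouse conflict with column names. Both small RNA columns of chow replicate 3, for its Sox9-EGFP Low and its Sox9-EGFP Negative cells, name a high fat diet. The labels of both these libraries and of its mRNA library say chow, and the labels were followed. Its mRNA library held 900.0 normalized counts of the class II gene H2-Aa, below the other chow libraries (3826 to 12664) and above the 4 high fat libraries (40.9 to 152). Its summed enteroendocrine markers came to 1382995, above the high fat libraries (129078 to 332758), and its summed genes of fatty acid oxidation to 34576, where the other chow libraries held 26507 to 31909 and the high fat libraries 63038 to 77623.

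Conventionalized mice had lower levels of 17 genes than chow mice, 0.0948% of those tested, and no gene passed the test in the other direction (limma, adjusted p under 0.05). All 17 had groups that did not overlap, as did 4.38% of all genes in that direction and 2.17% in the other. At an unadjusted p under 0.05 the counts were 1358 lower and 659 higher, and limma voom on estimated reads called 3 genes, all lower: Ceacam10, Malat1 and Gm37376. The median log2 difference over all genes was 0.04. Of the 17, 15 are protein-coding, and none is a member of the 29 gene lists described further on. The call depends on single libraries: no gene passed without chow replicate 1, chow replicate 3, conventionalized replicate 1 or conventionalized replicate 3, where 1657, 1606, 1988 and 1901 genes had an unadjusted p under 0.05. Adjusted p of the 17 was then 0.16 to 0.173, 0.067 to 0.121, 0.0843 to 0.0889 and 0.0971 to 0.148, respectively, with every difference still below 0. It was 3 genes without chow replicate 2, 6 without chow replicate 4, 6 without conventionalized replicate 2 (4 of them among the 17) and 1 without conventionalized replicate 4.

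Ceacam10, which codes for a secreted member of the carcinoembryonic antigen family of cell adhesion proteins (chromosome 7, 24777206 to 24784657 in GRCm38), showed the largest of these differences. It stood at 3124, 2493, 3061 and 4953 normalized counts in chow replicates 1 to 4 and at 409.9, 378, 651 and 893 in conventionalized replicates 1 to 4. Every conventionalized library was thus below every chow library, and the chow mean was 5.85 times the conventionalized one (3408 ± 1068 against 583 ± 239.8, SD, n = 4 each). On the log2 scale this was -2.59 (standard error 0.29, limma adjusted p 0.0339). Germ-free libraries of the same fraction held 1629.6, 1614, 1295 and 600.4, and their mean lay between the other 2 groups' means. Members of this family resemble each other in sequence, and how shared reads were counted is not given, so its level is uncertain to that extent.

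Malat1, a long noncoding RNA kept in the nucleus (chromosome 19, 5795690 to 5802672, minus strand), came to 12300.1, 6242, 11309.7 and 8705 in chow and 1750.0, 2722, 2726 and 1595 in conventionalized libraries. Its log2 difference was -2.13 (standard error 0.27, limma adjusted p 0.0371), a 4.39-fold lower mean, and the 4 germ-free libraries, at 4629.7 to 7119, lay above every conventionalized library and below every chow library but replicate 2. The predicted transcript Gm37376 lies inside Malat1 on the opposite strand (5801941 to 5802393). Its values tracked those of Malat1 closely, at 6319 to 11829 and 1825 to 3083, and without stated strand-specific counting the reads of the pair cannot be told apart, so it is no separate evidence. Neat1, the other abundant nuclear noncoding RNA, named after its values were seen, did not pass: it stood at 3207, 2931, 7713 and 5369 in chow and 2632, 2275, 4117 and 3719.7 in conventionalized libraries, which overlapped (log2 difference -0.52, limma adjusted p 0.548).

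Several of the other genes code for proteins of the endoplasmic reticulum, the Golgi and secretion. Reep5, which shapes the endoplasmic reticulum, stood at 1090.0, 1066, 1593 and 876 in chow and 211, 489, 376 and 283 in conventionalized libraries (log2 difference -1.80, limma adjusted p 0.0422). Ero1lb, an oxidase that helps form disulfide bonds in secretory proteins, stood at 611, 706, 641 and 433 in chow against 123, 271.3, 204 and 158 in conventionalized libraries (log2 difference -1.69, limma adjusted p 0.045). Hid1, needed for the making of dense core vesicles, reached 1228, 1906, 2133 and 1592 in chow and 736, 531, 537 and 792 in conventionalized libraries (log2 difference -1.39, limma adjusted p 0.045). In all 3 the lowest chow library was above the highest conventionalized one. B4galt5, a galactosyltransferase of glycolipid synthesis, showed 599 to 1020.5 in chow and 284 to 369.9 in conventionalized mice (log2 difference -1.42, limma adjusted p 0.0422). The golgins Gcc2 (894 to 1184 against 322 to 524, log2 difference -1.32) and Golgb1 (561 to 812 against 248 to 315.4, log2 difference -1.25) were also lower. No theme is claimed for these genes, since no list of them was fixed or tested for enrichment.

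The remaining genes have varied roles. Ccdc120, a coiled-coil protein gene on chromosome X, fell from 776, 662, 558 and 253 in chow to 135, 87.7, 109 and 126 in conventionalized libraries (log2 difference -2.19, limma adjusted p 0.0422). Serpini1, the inhibitor neuroserpin, stood at 400.3, 280.1, 533 and 274 in chow and 90.2, 127, 117 and 119.9 in conventionalized libraries (log2 difference -1.66, limma adjusted p 0.045), while the germ-free libraries at 294 to 449.8 reached into the chow range. Usp34, a deubiquitinase, was nearly flat among conventionalized libraries (125, 130.0, 138 and 142) and stood at 437, 439.9, 303 and 372 in chow (log2 difference -1.51, limma adjusted p 0.0422). Spread within the conventionalized group was thus small for this gene. Espn, an actin-bundling protein of microvilli, behaved similarly, at 553, 541, 566 and 538 against 1153, 1251, 2054 and 1195, with chow replicate 3 above the rest (log2 difference -1.32, limma adjusted p 0.0422). Arhgef2, an exchange factor for RhoA, differed by -1.35 and Zfp710, a zinc finger protein, by -1.37. The RNA-binding protein gene Atxn2l differed by -1.26 and Bpgm, an enzyme of the glycolytic side path to bisphosphoglycerate, by -1.27. Atxn2l, Golgb1, Gcc2, Bpgm and Gm37376 fall outside the rule for named genes and are named because they complete the 17.

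**Figure D1:**
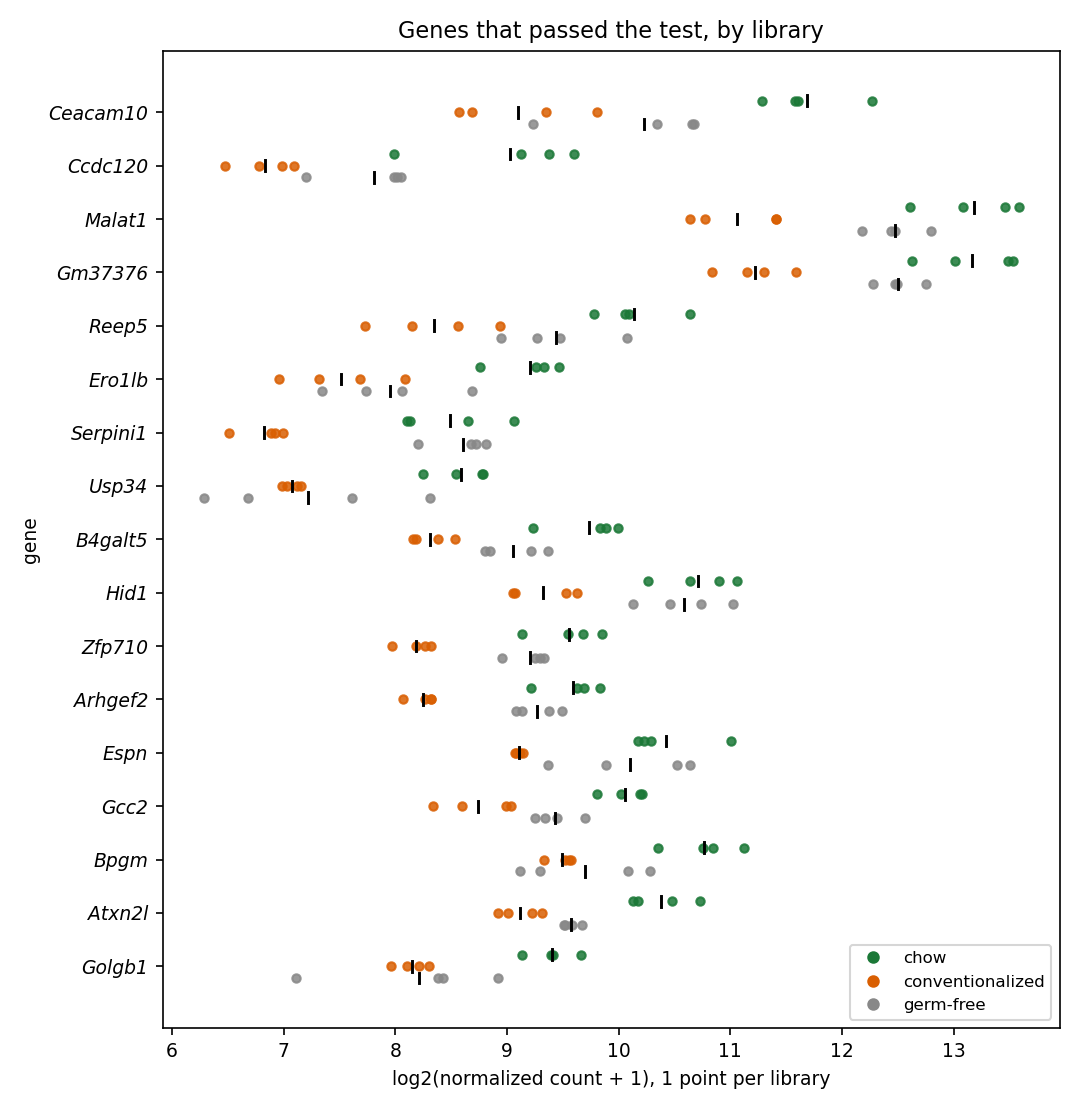
Each row is a gene that passed the test, and each point is 1 library on a log2(normalized count + 1) axis, with chow in green, conventionalized in orange and germ-free in grey (4 each); black ticks are group means on this scale. In all 17 rows the orange points lie left of every green point, and Gm37376 repeats the pattern of Malat1, with which it overlaps.

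Germ-free libraries are shown beside these genes as levels only, since they were not part of the test. For Hid1, Serpini1, Zfp710, Arhgef2 and Malat1, among others, the 4 germ-free libraries all stood above all 4 conventionalized ones (for example Hid1 at 1118 to 2082 and Arhgef2 at 539.9 to 719). For Usp34 and Golgb1 they spread across the conventionalized level and beyond it, at 76.8 to 316 and 138 to 484. High fat libraries of the same fraction were not part of the test either. They lay below every chow library for Reep5 (237 to 451), Serpini1 (42.9 to 157) and Espn (383 to 662), among others. For Atxn2l (1133 to 1331) and Golgb1 (574 to 651) they lay within the chow range. Low levels of Reep5, Serpini1 and Espn were thus not particular to conventionalized mice.

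No gene passed the test as higher in conventionalized mice, so the 12 with the smallest p among non-overlapping genes are given as values. Rps4l, annotated as a processed pseudogene of a ribosomal protein gene and uncertain because its reads resemble those of its parent, stood at 861, 699, 649 and 1023 in chow and 1746, 1289, 1614 and 2497 in conventionalized libraries (log2 difference 1.13, limma adjusted p 0.101). Cpne2, a calcium-dependent membrane-binding copine, stood at 125, 121, 67.4 and 138 in chow and 317, 267, 235 and 268 in conventionalized libraries (log2 difference 1.30, limma adjusted p 0.101). Slc28a2, a purine nucleoside transporter, stood at 303.6, 249, 279 and 338 in chow and 397, 638, 601 and 643 in conventionalized libraries (log2 difference 0.94, limma adjusted p 0.13), and germ-free libraries lay below both groups at 101 to 155. Abcg5, which pumps sterols back into the gut lumen, stood at 558, 542, 507 and 532 in chow and 1196, 733, 861 and 1109 in conventionalized libraries (log2 difference 0.84, limma adjusted p 0.13). The other 8 were Rrp7a, Babam2, Wwc1, Polr2b, Nadk2, Pask, Top3a and Mtbp, with differences between 0.72 and 1.15 and limma adjusted p between 0.114 and 0.178. With all Sox9-EGFP Low groups in 1 fit, 2 genes passed as higher and are named after their values were seen. Pla2g4c, a phospholipase, stood at 8.13, 9.47, 6.56 and 19.6 in chow and 103, 71.3, 52.8 and 43.8 in conventionalized libraries (log2 difference 2.56, limma adjusted p 0.0241). Gm16387 was listed at 0, 0, 0 and 2.44 and 11.1, 35.2, 49.0 and 11.7, and it cleared the minimum through the conventionalized group alone.

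Markers of enteroendocrine cells, the hormone-secreting cells of the epithelium, were lower in the conventionalized group in all 26 of 26 cases by direction, beside 45.9% of all genes, with none passing the adjusted test (smallest limma adjusted p 0.0938). Their median log2 difference was -1.41 beside 0.04 over all genes. An unadjusted p under 0.05 was held by 22 of 26, beside 7.57% of all genes in that direction. For 8 the groups did not overlap, beside 4.38% of all genes in that direction. The summed level of the list was 470354, 405785, 1382995 and 872522 normalized counts in chow replicates 1 to 4 and 206573, 147820.5, 336463 and 359961 in conventionalized replicates 1 to 4. These sums did not overlap, although chow replicate 2 and conventionalized replicate 4 were close, and they made up 2.43% to 9.69% of the chow and 1.24% to 2.7% of the conventionalized libraries. In such bulk samples fewer cells of a type and less RNA per cell cannot be told apart.

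Hormone genes were among the largest of these differences. Gip, the glucose-dependent insulinotropic peptide, stood at 125700.0, 166239, 297136 and 286873 in chow and 34609.8, 41048, 56371 and 96071 in conventionalized libraries, and the groups did not overlap (log2 difference -1.96, standard error 0.49, limma adjusted p 0.178). Gcg, the proglucagon gene, stood at 11292, 8645, 37375 and 16490.5 in chow and 1469, 3162, 5940.4 and 4264 in conventionalized libraries (log2 difference -2.25, limma adjusted p 0.124). Cck, cholecystokinin, stood at 18997, 16894, 84271 and 31937 in chow and 2211, 6937, 12714 and 12871 in conventionalized libraries (log2 difference -2.11, limma adjusted p 0.248). In each of them chow replicate 3 was the highest of the 8 libraries. Secretin (Sct) overlapped, at 45414 to 201171 against 12827 to 50053 (log2 difference -1.70), as did the granule proteins Chga (35854 to 187989 against 10447 to 52698, log2 difference -1.47) and Chgb (59729 to 252587 against 23408 to 72648, log2 difference -1.34). Somatostatin (Sst) differed by -0.61 with wide overlap.

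Among transcription factors of the lineage, Rfx6, which acts in the maturing hormone cell, held the smallest p of the list, at 813, 689, 1881 and 1156 in chow and 285, 425, 412 and 351 in conventionalized libraries (log2 difference -1.53, 95% interval -2.16 to -0.89, limma adjusted p 0.0938). Pax6 (log2 difference -1.41) also had groups that did not overlap. Neurog3, the factor that starts the lineage, stood at 260.4, 298, 335 and 458 in chow and 684, 205, 166 and 178 in conventionalized libraries, with conventionalized replicate 1 the highest of all (log2 difference -0.38, unadjusted p 0.367). Germ-free libraries held 653010.3 to 1408069 in the summed list, all above every conventionalized library. High fat libraries held 129078 to 332758, below every chow library and overlapping the conventionalized range, so low sums were not particular to conventionalized mice.

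The size of the enteroendocrine difference turned on which chow animals were used. Against chow replicates 3 and 4 alone, 24 of 26 members had an unadjusted p under 0.05, 10 passed the adjusted test (over all genes tested, 81 passed and 2175 had such a p) and the median was -2.11. Against chow replicates 1 and 2 alone, 5 had such a p, none passed (over all genes tested, 42 passed and 1470 had such a p), 24 of 26 were below 0 and the median was -0.64. Without chow replicate 3 the count was 16 and the median -0.96.

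Tuft cell markers, from the chemosensory cells that secrete interleukin 25, showed the widest difference of any list by its median, -2.28 over the 14 members tested. Of these, 13 were lower in conventionalized mice, all 13 with an unadjusted p under 0.05, and 10 had groups that did not overlap, beside 7.57% and 4.38% of all genes. None passed the adjusted limma test (smallest adjusted p 0.094). Summed levels were 24193, 25348, 33917 and 15391 in chow and 1378, 12733, 7338 and 4478 in conventionalized libraries, with no overlap. Conventionalized replicate 1 was by far the lowest, and germ-free libraries at 6711 to 13949 lay below every chow library. High fat libraries of the same fraction, at 1777 to 9083, also lay below every chow library, so low tuft sums were not particular to conventionalized mice.

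Rgs13, a regulator of G protein signalling, had the smallest p of the list at 2821, 2722, 3132 and 1817 in chow and 98.0, 995, 589.8 and 314.996 in conventionalized libraries (log2 difference -2.80, 95% interval -4.01 to -1.60). Gfi1b, a transcription factor found in tuft cells, stood at 266, 436, 714 and 186 in chow and 21.7, 108, 121 and 36.9 in conventionalized libraries (log2 difference -2.60, limma adjusted p 0.124). The ion channel Trpm5 stood at 3481, 3122, 5553 and 2111 in chow and 211, 1838, 1112 and 618 in conventionalized libraries (log2 difference -2.22, limma adjusted p 0.169). Chow replicate 3 was highest and conventionalized replicate 1 lowest in each. The actin-binding protein Avil (log2 difference -2.30) and the lineage factor Pou2f3 (log2 difference -1.70) did not overlap either, whereas Dclk1 did, because conventionalized replicate 2 at 1866 stood above chow replicate 4 at 1644 (log2 difference -2.29). The exception by direction was the taste G protein subunit Gnat3, a gene of low level here at 35.3 to 74.0 and 34.6 to 136 (log2 difference 0.12, a sign that turned without chow replicate 1, without conventionalized replicate 2, with quantile normalization or with chow replicates 3 and 4 alone).

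In contrast to the enteroendocrine list, the tuft count hardly moved with the chow animals used. It was 13 of 14 against chow replicates 1 and 2 (median -2.37), 11 against replicates 3 and 4 (median -2.23) and 12 or 13 with any single library left out. Without conventionalized replicate 1, the lowest library, it was 12 and the median -1.63. The lists' differences were not tested against each other.

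**Figure D2:**
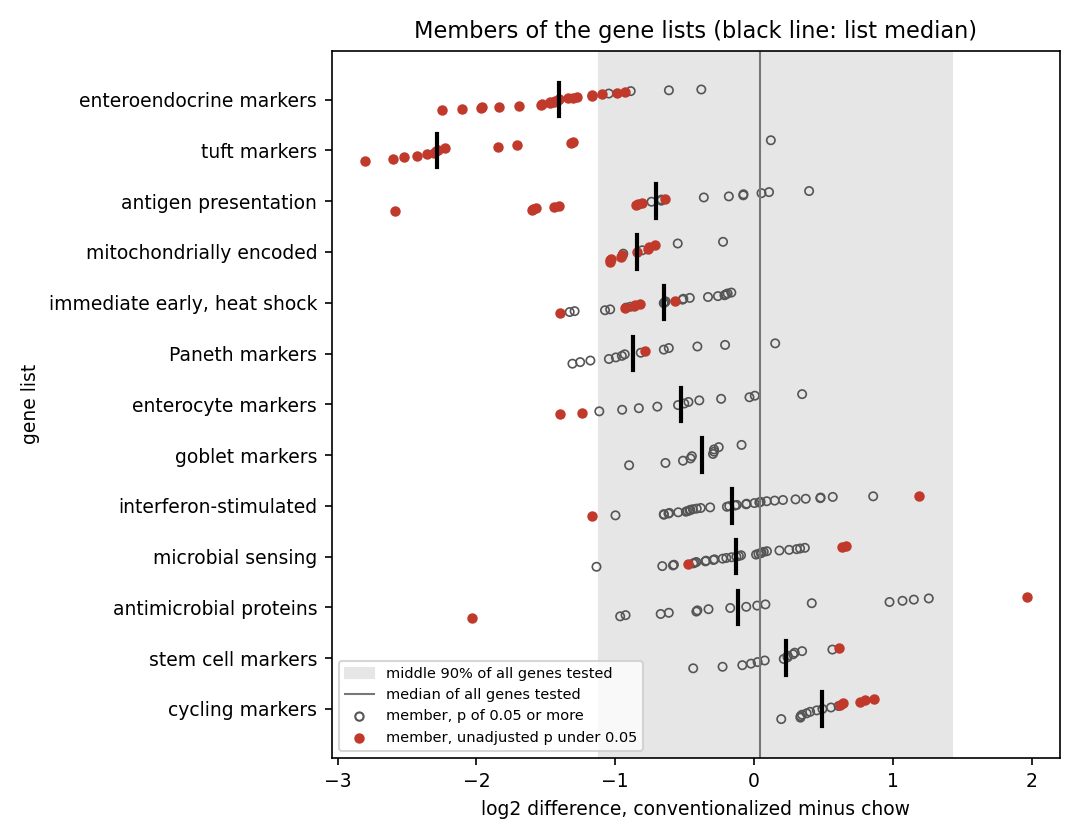
Each point is a tested member of a gene list by its log2 difference (conventionalized minus chow), filled red where its unadjusted p was under 0.05, with the list median as a black line; the grey band spans the 5th to 95th percentile of all 17941 genes and the grey line their median. Tuft and enteroendocrine markers lie furthest left, with medians of -2.28 and -1.41, and cycling markers lie to the right at 0.49.

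Markers of Paneth cells, which guard the crypt base with defensins and lysozyme, split the chow animals. Their summed markers came to 846606, 612879.5, 133800.4 and 77016 in chow replicates 1 to 4 and 98466, 163584, 152094 and 134730.2 in conventionalized replicates. Chow replicates 1 and 2 lay far above everything else, chow replicate 3 lay within the conventionalized range, and chow replicate 4 lay below it. Of 14 members tested 13 were lower, beside 45.9% of all genes, with a median of -0.87. An unadjusted p under 0.05 was held by 1, beside 7.57% of all genes in that direction. It was the protease Mmp7 (1134 to 3094 against 923 to 1229.5, log2 difference -0.78). Against chow replicates 1 and 2 alone the median was -2.23 and 6 members passed the adjusted limma test, where 42 genes of the whole table passed and 1470 had an unadjusted p under 0.05. Against replicates 3 and 4 alone the median was 0.37, the opposite direction, with none passing. The number at an unadjusted p under 0.05 was 8 without chow replicate 4, 3 without chow replicate 3 and 0 without chow replicate 1 or 2. Lysozyme (Lyz1) stood at 111175, 83207, 26678 and 12756 in chow and 19512, 26235, 22387 and 20779 in conventionalized libraries. The defensins Defa24, Defa17 and Defa30 followed the same order among chow libraries, and as near-identical copies they may share reads.

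Markers of goblet cells, which make the mucus, varied widely among conventionalized mice. Summed markers were 609281, 20476, 35785 and 76051 in conventionalized replicates 1 to 4 against 84027, 96215, 67229.7 and 248578 in chow. Conventionalized replicate 1 thus exceeded every other library of the comparison, and it was also the one with the lowest tuft sum. The mean of the sums was therefore higher in the conventionalized group. All 10 markers were nonetheless lower by direction on the log2 scale (median -0.37), beside 45.9% of all genes, and none had an unadjusted p under 0.05. Without conventionalized replicate 1, 9 of 10 had such a p, at a median of -1.33, and none passed the adjusted test. In that fit 1988 of all 17941 genes had such a p, both directions together. Zg16, a lectin of the mucus, ranged over 4451 to 287695 in conventionalized and 23237 to 120876 in chow libraries, and the trefoil peptide Tff3 over 6125 to 139414 and 22128 to 62092. Without conventionalized replicate 2 both Zg16 and Tff3 turned in sign.

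**Figure D3:**
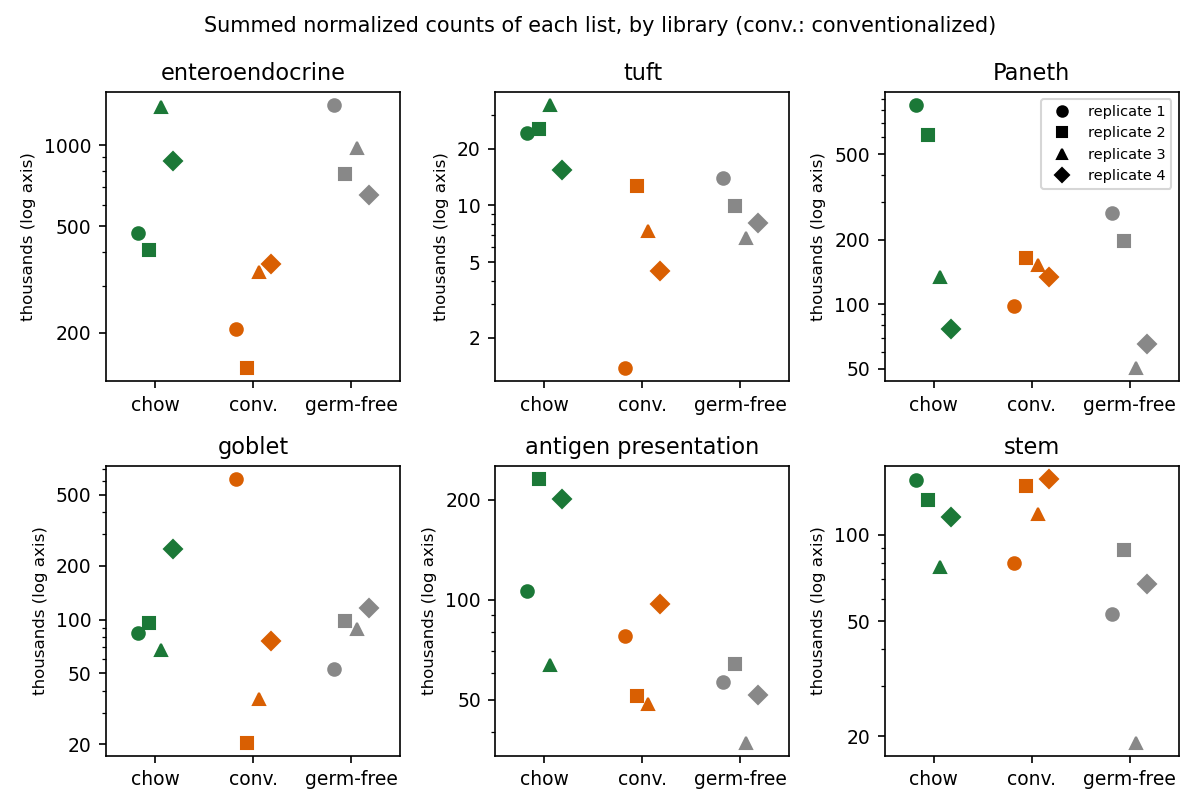
Summed normalized counts of the members of 6 lists, on log axes, for chow, conventionalized and germ-free libraries, with the marker shape giving the replicate. Enteroendocrine and tuft sums separate chow from conventionalized libraries, Paneth sums split the chow libraries into 1 and 2 against 3 and 4, and the goblet sum of conventionalized replicate 1 stands above all others.

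No stem cell marker passed the adjusted limma test. Of 14, 10 were higher and 4 lower (median 0.23), where 45.9% of all genes were lower. An unadjusted p under 0.05 was held by 1, Cdca7 (log2 difference 0.61, limma adjusted p 0.397), beside 3.67% of all genes in the higher direction. Lgr5, the receptor that marks crypt base stem cells, stood at 2802, 2432, 1879.9 and 2155 in chow and 976, 5167, 3819 and 3233 in conventionalized libraries (log2 difference 0.29, 95% interval -0.62 to 1.21). The lowest Lgr5 level of the 8 was that of conventionalized replicate 1. Germ-free libraries held 378 to 1478, below every library of both groups but conventionalized replicate 1. Without conventionalized replicate 1, 5 stem cell markers had an unadjusted p under 0.05, as did 1988 of all genes tested. Cycling markers were higher in all 15 cases by direction, median 0.49, where 45.9% of all genes were lower. Of these markers 5 had an unadjusted p under 0.05, beside 3.67% of all genes in the higher direction. Of the helicase subunits, Mcm6 stood at 4501, 4023, 2120.5 and 3851 in chow and 5580.0, 5757, 4002 and 6427 in conventionalized libraries (log2 difference 0.62, limma adjusted p 0.407), with chow replicate 3 lowest. The count of cycling markers at that p was 2 without chow replicate 3, 11 without chow replicate 2, 2 without conventionalized replicate 1 or 2 and 3 without replicate 4. It was 12 against chow replicates 3 and 4 and 0 against replicates 1 and 2. Enterocyte markers were lower in 12 of 14 cases (median -0.52), beside 45.9% of all genes. An unadjusted p under 0.05 was held by 2, beside 7.57% of all genes in that direction: the disaccharidase Sis (log2 difference -1.24) and the apolipoprotein Apoa4 (log2 difference -1.40). That count reached 8 without conventionalized replicate 1 and 5 without chow replicate 2, where 1988 and 2117 of all genes tested had such a p.

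Antigen presentation genes, through which epithelial cells show peptides to T cells, were lower in 17 of 20 cases by direction (median -0.70), 10 of them with an unadjusted p under 0.05, beside 45.9% and 7.57% of all genes, and none passed the adjusted limma test (smallest adjusted p 0.238). The class II chain H2-Aa stood at 3826, 12664, 900.0 and 10244 in chow and 556, 634, 462 and 2120.1 in conventionalized libraries (log2 difference -2.58, limma adjusted p 0.238). Ciita, the master regulator of class II genes, stood at 379, 1027, 105 and 794 in chow and 97.4, 159, 121 and 201 in conventionalized libraries (log2 difference -1.60, limma adjusted p 0.35). In both, chow replicate 3 lay within the conventionalized range and the other 3 chow libraries above it. For Cd74, the invariant chain, and H2-Ab1 chow replicate 3 was the lowest of the 8, and the log2 differences were -1.44 and -1.57. The class I genes H2-K1 and H2-D1 differed by -0.85 and -0.81. Of 20, the count at that p was 14 without chow replicate 3 and 2 without chow replicate 2 or chow replicate 4. It was 6 without conventionalized replicate 1, 4 without replicate 2, 3 without replicate 3, 6 without chow replicate 1 and 3 against chow replicates 3 and 4 alone. Germ-free libraries held 123 to 891 of H2-Aa. Summed over the list, high fat libraries held 39734 to 44076 normalized counts, against 63555 to 230543.5 in chow and 48538 to 97226 in conventionalized libraries. Low sums were thus not particular to conventionalized mice.

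Antimicrobial proteins showed no common direction. Of 18 tested, 10 were lower and 8 higher, with a median of -0.11. Reg3b, a bactericidal lectin, stood at 7257, 2089.6, 4400.3 and 3964 in chow and 57444, 10576, 3907 and 25860.2 in conventionalized libraries. The mean was 5.52 times that of chow, with replicates 1 and 4 the highest, and the groups overlapped (log2 difference 1.96, 95% interval 0.47 to 3.46, unadjusted p 0.0142, limma adjusted p 0.323). Germ-free libraries, at 24.3 to 512, were below every library of both groups. Reg3g, its close relative, stood at 8846, 4115, 2584 and 6037 in chow and 35649, 5996, 2729.6 and 14588 in conventionalized libraries (log2 difference 0.98, limma adjusted p 0.59), with germ-free libraries at 244.2 to 764. Reg4, a lectin also made by enteroendocrine cells, stood at 22903, 21160.0, 90439 and 32798 in chow and 4081, 3649, 26255 and 13177 in conventionalized libraries (log2 difference -2.03, limma adjusted p 0.289).

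Other genes of the response to microbes were near the background of 7.57% lower and 3.67% higher at an unadjusted p under 0.05. Of 31 genes of microbial sensing, 1 was lower and 2 were higher at an unadjusted p under 0.05 (median -0.13), among 34 interferon-stimulated genes 1 and 1 (median -0.16), and among 9 oxidase genes 1 and 0 (median 0.08). Usp18, which restrains interferon signalling, was the interferon gene whose groups did not overlap, at 385, 312, 1030.2 and 741 in chow and 244.01, 196, 288 and 258 in conventionalized libraries (log2 difference -1.17, limma adjusted p 0.251). The nitric oxide synthase Nos2 stood at 315.2, 175, 139.6 and 394 in chow and 111, 153, 107 and 79.9 in conventionalized libraries (log2 difference -1.09, limma adjusted p 0.29). Neither passed, and the Nos2 levels overlapped.

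In metabolic and regional lists at most 3 members had an unadjusted p under 0.05 in 1 direction, and none passed. Median differences were 0.01 for 22 genes of fatty acid oxidation, -0.11 for 20 of cholesterol synthesis and -0.18 for 20 of fat absorption. They were -0.12 for 25 of xenobiotic metabolism, -0.17 for 20 of mucins and their glycosylation and -0.05 for 17 of regional identity. Larger differences were those of Adh1, an alcohol dehydrogenase of the proximal intestine, at 14070.5, 17743, 23221 and 11929 in chow and 3319.8, 4865, 7335 and 5476 in conventionalized libraries (log2 difference -1.68, limma adjusted p 0.0627). Pdk4, a kinase that restrains glucose oxidation, stood at 285, 217, 369.7 and 218 in chow and 108, 34.7, 101 and 121 in conventionalized libraries (log2 difference -1.68, limma adjusted p 0.137). Neither passed in the main fit, and in each the groups did not overlap. Adh1 did pass with all Sox9-EGFP Low groups in 1 fit (limma adjusted p 0.0308).

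Among 19 clock genes 13 were lower and 6 higher, with a median of -0.28, and none passed. Groups did not overlap for 1 lower and 2 higher members, beside 4.38% and 2.17% of all genes. Per1, a repressor of the clock, stood at 807, 247, 145 and 208 in chow and 38.03, 61.8, 108 and 120.4 in conventionalized libraries, without overlap (log2 difference -1.89, limma adjusted p 0.223), and Arntl and Npas2, its activators, were higher without overlap, with log2 differences of 0.31 and 0.58 (limma adjusted p 0.499 and 0.358). Time of day at collection is not given in the labels used here, and its part in these values was not tested.

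Signs of RNA quality and of other cells were measured beside these groups. Mitochondrially encoded genes were lower by direction in all 13 cases, 9 with an unadjusted p under 0.05 (median -0.84), where 45.9% of all genes were below 0 and 7.57% were lower at that p, and their summed level was 228029, 275531, 119718 and 179219 in chow and 134602, 114270.4, 93637 and 98933 in conventionalized libraries. The sum of chow replicate 3 lay within the conventionalized range. That count was 4 without chow replicate 1, 5 without chow replicate 2, 12 without chow replicate 3, 4 without conventionalized replicate 3 and 2 against chow replicates 3 and 4 alone. Immediate early and heat shock genes, which rise when tissue is dissociated, were lower in all 24 cases (median -0.65, 6 at that p), with sums of 158939 to 220047 and 100651 to 217774 that overlap. Genes of the unfolded protein response were lower in 16 of 17 cases (median -0.43, 4 at that p). The part of RNA quality in the results above was not tested.

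Markers of cells from outside the epithelium were at low levels in both groups. Summed T cell markers, of which 7 of 14 were tested, were 139 to 388 in chow and 126 to 482 in conventionalized libraries. Myeloid sums (5 of 13 tested) were 386 to 623 and 433 to 556. The defining T cell genes Cd3d, Cd3e, Cd8a and Trac were at 0 in at least 1 library, as were the myeloid genes Csf1r and Adgre1. Sums for B and plasma cells (3 of 10 tested) were 51.9996 to 87.2 and 35.0 to 223, and for stromal and endothelial cells (8 of 15 tested, 7 higher) 81.5 to 406 and 93.3 to 828. Red cell sums (4 of 5 tested) were 103 to 538 and 14.6 to 912. All these ranges overlapped. Xist was present in all 8 libraries at 949.7 to 2178 and 605 to 1499.9, and the Y-linked genes Ddx3y, Uty, Kdm5d and Eif2s3y stayed under the minimum. Of 7 genes known to differ between mouse strains or sublines, 6 were tested and 4 were higher, at a median of 0.17, none with an unadjusted p under 0.05.

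Small RNA was sequenced from the same mice, matched by animal number, since the replicate numbers of the conventionalized group differ between assays (small RNA replicates 1 to 4 are the mice of mRNA replicates 3, 4, 1 and 2). MicroRNAs are short RNAs that bind messenger RNAs through their seed, bases 2 to 8, and lower their output. Of those with a mean of at least 50 RPMMM, the authors' unit of microRNA level, 55 passed (22.6%). In conventionalized mice 37 were higher (15.2% of those tested) and 18 lower (7.41%). Groups did not overlap for 28.8% of those tested in the higher and 9.05% in the lower direction, and 39.9% of differences were below 0. The median log2 difference over all of them was 0.24, and rescaling by median of ratios brought it to 0.07 and the calls to 7 higher and 18 lower, so the share of higher calls moved with the scaling. Quantile normalization gave 15 higher and 13 lower. All chow libraries were in sequencing lane 1 by their column names and the conventionalized ones in lanes 5, 5, 1 and 3, so lane and group cannot be told apart beyond the 1 conventionalized library in lane 1, replicate 3. A suffix of unstated meaning marks 14 of the 55, which are left unnamed.

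The sequences below, credited to RefSeq (GRCm38.p6), are those of named microRNAs with an entry there, given 5′ to 3′ with the seed in capitals so that shared seeds can be seen.
mir-106b-5p: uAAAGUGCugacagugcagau
mir-20a-5p: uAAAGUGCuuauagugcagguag
mir-93-5p: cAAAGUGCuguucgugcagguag
mir-10a-5p: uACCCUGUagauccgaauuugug
mir-10b-5p: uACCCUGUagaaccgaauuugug
mir-298-5p: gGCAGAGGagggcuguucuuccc
mir-802-5p: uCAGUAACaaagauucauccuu
mir-1224-5p: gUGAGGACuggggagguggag
mir-184-3p: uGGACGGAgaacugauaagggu
mir-146a-5p: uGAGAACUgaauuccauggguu

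The seed AAAGUGC is known from clusters active in dividing cells. Of 5 microRNAs tested that are named here with it, 3 passed as higher in conventionalized mice, beside 15.2% of all microRNAs tested. Among these mir-106b-5p, with a chow mean of 38.3 RPMMM, cleared the minimum mean only through the conventionalized group. Its test therefore adds nothing to its values. mir-106b-5p (chromosome 5, 138165787 to 138165807) stood at 51.4, 34.0, 14.9 and 52.97 RPMMM in chow replicates 1 to 4 and 268, 277, 118 and 98.8 in conventionalized replicates (log2 difference 2.29, standard error 0.50, limma adjusted p 0.0223). mir-20a-5p (chromosome 14, 115044183 to 115044205) stood at 241.3, 425, 51.6 and 303 in chow and 1025, 1405, 635 and 538 in conventionalized libraries (log2 difference 2.06, limma adjusted p 0.0367). mir-93-5p (chromosome 5, 138165574 to 138165596), named after its values were seen, lies beside mir-106b-5p and stood at 1615 to 4872 and 5775 to 11945 (log2 difference 1.24, limma adjusted p 0.0399). In all 3 chow replicate 3 was lowest and no library overlapped, beside 28.8% of all microRNAs tested without overlap in that direction. mir-17-5p and mir-20b-5p, also named after their values were seen, did not pass, with log2 differences of 2.41 and 2.84 (limma adjusted p 0.0525 and 0.0715). After median-of-ratios scaling mir-20a-5p and mir-93-5p did not pass. mir-106b-5p still did, under the same limit, so no weight is put on that call.

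mir-298-5p (chromosome 2, 174267553 to 174267575) was listed at 6.50, 0, 0 and 9.46 RPMMM in chow and 89.4, 121, 64.2 and 162 in conventionalized libraries (log2 difference 5.13, limma adjusted p 0.00443). It is listed at 0 in chow replicates 2 and 3, so the fitted difference depends on the pseudocount. With a chow mean of 3.99 RPMMM, it cleared the minimum only through the group where it was high, and its test adds nothing to these values. mir-106b-5p, with a chow mean of 38.3, cleared it in the same way, and the same limit holds for its test. Germ-free libraries held 55.0, 114, 92.3 and 57.1 of mir-298-5p. mir-143-3p, best known from smooth muscle and stroma, stood at 58.5, 50.01, 57.3 and 75.2 in chow and 138, 430.1, 141 and 345 in conventionalized libraries (log2 difference 1.94, limma adjusted p 0.0189), beside stromal marker sums that overlapped between groups; their part in it was not tested. mir-802-5p (chromosome 16, 93369737 to 93369758) stood at 38.98 to 207 and 212 to 629 (log2 difference 1.76, limma adjusted p 0.0399).

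Lower in conventionalized mice were mir-3096-5p, at 179, 320.5, 223 and 262 RPMMM in chow and 30.1, 54.2, 33.8 and 38.05 in conventionalized libraries (log2 difference -2.63, limma adjusted p 0.000738), and its relative mir-3096b-5p (log2 difference -2.25, limma adjusted p 0.000987). mir-3096-5p passed in all 17 alternatives that gave it a value and mir-3096b-5p in all 18. mir-3096-5p was kept by the minimum of 50 RPMMM through the chow group, where it was high. mir-1224-5p (chromosome 16, 20604452 to 20604472) stood at 168, 173, 1479.6 and 208 in chow and 49.0, 21.8, 62.7 and 74.6 in conventionalized libraries (log2 difference -2.67, limma adjusted p 0.0277), with chow replicate 3 far above the rest and germ-free libraries at 367 to 854. mir-184-3p (chromosome 9, 89802263 to 89802284) had the same high library, at 244.4, 297, 1253 and 584 in chow against 89.2, 149, 145 and 198 in conventionalized libraries (log2 difference -1.77, limma adjusted p 0.0355). Without that library their differences were -1.92 and -1.31, both still past the threshold. mir-146a-5p, a microRNA that dampens NF-kappaB signalling (chromosome 11, 43374435 to 43374456), stood at 919, 1016, 409 and 1948 in chow and 317, 339.8, 205 and 313 in conventionalized libraries (log2 difference -1.69, limma adjusted p 0.0277). mir-10a-5p and mir-10b-5p, which share the seed ACCCUGU, lie in the Hox clusters (chromosome 11, 96317186 to 96317208 and chromosome 2, 74726074 to 74726096) and were lower, with log2 differences of -0.98 and -1.50 (limma adjusted p 0.0331 for both). They were named after their values were seen.

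These calls depended on single libraries. The number that passed was 9 without conventionalized replicate 1, 8 without replicate 2 and 10 without replicate 3, against 68 without replicate 4, and it was 19 without chow replicate 1. mir-3096b-5p passed in all of these. So did mir-3096-5p, under the limit given above, so no weight is put on that. mir-106b-5p did not pass without conventionalized replicate 1 or 2, nor mir-143-3p without replicate 2. mir-20a-5p, mir-93-5p, mir-802-5p, mir-1224-5p, mir-184-3p, mir-146a-5p, mir-10a-5p and mir-10b-5p did not pass without conventionalized replicate 1, 2 or 3. These 8 kept their direction in each of these fits.

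miR-375-3p, the microRNA that the series is about, stood at 55679.8, 35358, 144628 and 78794 RPMMM in chow and 86006, 51228, 42327 and 31198 in conventionalized libraries. The groups overlapped, with the highest level in chow replicate 3. Its log2 difference was -0.49 (95% interval -1.43 to 0.45, limma adjusted p 0.387), and the exact two-sided permutation test gave p = 0.4, where 0.0286 is the smallest value that 4 against 4 allows. miR-375-3p is abundant in enteroendocrine cells, whose summed markers were also highest in chow replicate 3. The direction turned with library weights and with quantile normalization.

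**Figure D4:**
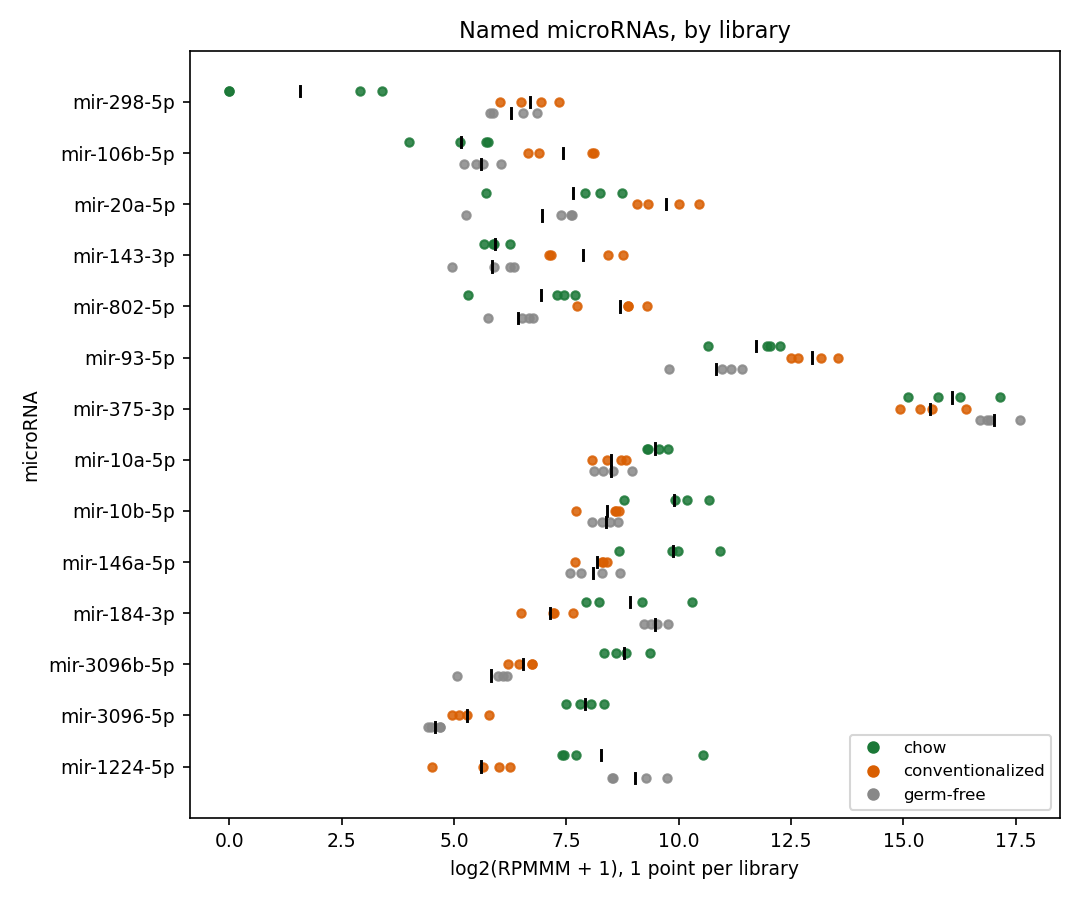
Named microRNAs by library on a log2(RPMMM + 1) axis, with chow in green, conventionalized in orange and germ-free in grey (4 each) and black ticks at group means on this scale. The conventionalized points lie right of all chow points for mir-298-5p to mir-93-5p and left of them for mir-10a-5p and the rows under it, and they overlap for mir-375-3p.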

How the data were processed

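Sorted Sox9-EGFP Low cells were profiled by mRNA sequencing (SMARTer Ultra Low Input and Nextera XT) and small RNA sequencing (CleanTag), per the labels' protocols. The authors deposited normalized counts per gene, here treated as a signal, and microRNA levels in RPMMM, an RPM unit, both per the file headers. STAR, Salmon, DESeq2, Cell Ranger and mm10 are named in the submitters' processing notes, with no versions or roles. No source used here states the strand setting or how multi-mapping reads were counted. The deposited values are not whole reads, so depth was estimated from the value of 1 read in each library and no count model was the main test.

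Differences (conventionalized minus chow) were computed on log2(value + 1) with limma 3.58.1 (R 4.3.3; lmFit and eBayes with a trend), 4 against 4 libraries, for named genes with a mean of at least 10 normalized counts and microRNAs with at least 50 RPMMM over the 8 libraries. These differences understate the change of low genes. P-values were adjusted by Benjamini-Hochberg over all genes or microRNAs tested, and a feature passed at an adjusted p under 0.05. Single values were tested by an exact two-sided permutation test. The 381 entries without a name, 0.0366% to 0.0646% of each library, were left out, and 63 symbols stand on 2 entries. Of the small RNA columns, 4 match no sample and were not used. Positions of genes are from GENCODE for GRCm38 (mm10), and those of microRNAs from RefSeq.

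Named genes were the 12 largest decreases and 12 largest increases among genes that passed, did not overlap and had a mean of at least 100 normalized counts and a symbol that is no predicted, Rik or -ps name. Open places were filled by the smallest p. Called list members and up to 4 others per list by mean level, Sox9, Lgr5, Olfm4, Reg3b, Reg3g, the 5 largest changes of microRNAs in each direction and miR-375-3p could also be named. Genes and microRNAs named outside this rule were chosen after their values were seen. They are Neat1, Pla2g4c, Gm16387, mir-93-5p, mir-17-5p, mir-20b-5p, mir-10a-5p, mir-10b-5p, the last 5 of the 17 and further list members. Those list members, Gcg and Cck among them, were given for their p, for their difference or for an exception within their list. The genes and the 29 lists were chosen with earlier results of these data known, so counts over a list are descriptions. Alternatives covered pseudocounts, filters, scaling, pooled spread, robust fitting, library weights, the replicate number, the chow animals used and each library left out. Limma voom on estimated reads was added after the data were seen. The script was tested on simulated data.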

Additional observations from a re-analysis of the deposited data

Results flagged for a closer look

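Of 164 groups of 4 libraries examined, 6 (3.66%) had a library set apart from the other 3, where chance alone gives about 1 in 20. Espn was high in chow replicate 3, at 2054 normalized counts with the nearest library at 1251. Slc28a2 was low in conventionalized replicate 1, at 397 against 601 in the nearest, a library that also had the lowest tuft and highest goblet sums. Zg16 was high in chow replicate 4, at 120876 against 29914. Among microRNAs, mir-1224-5p was high in chow replicate 3 (1479.6 RPMMM, nearest 208), the library whose column name gives another diet. mir-146a-5p (205 RPMMM, nearest 313) and mir-10b-5p (209 RPMMM, nearest 381) were low in conventionalized small RNA replicate 3, which is the mouse of conventionalized mRNA replicate 1 and the conventionalized library in lane 1. The causes were not tested.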

How the results depend on the processing

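The count of 17 genes was 17 with a pseudocount of 0.5 or 8, with median-of-ratios scaling and with quantile normalization (15 of them shared with the 17), and 18 with robust fitting. It was 31 with 5 times the minimum mean, 39 with no filter, 26 with all Sox9-EGFP Low groups in 1 fit, 27 with library weights and 3 with voom on estimated reads. It was 42 against chow replicates 1 and 2 (11 of the 17) and 81 against replicates 3 and 4 (5 of the 17), and 0 to 6 with a library left out. Genes called higher numbered 2 with all groups in 1 fit, 1 with library weights, 1 with no filter, 1 against chow replicates 1 and 2, 2 against replicates 3 and 4 and 3 with the replicate block. All 17 differences stayed below 0 in all 21 alternatives. The count of 55 microRNAs was 89 with all groups in 1 fit, 122 with library weights, 25 with median-of-ratios scaling, 28 with quantile normalization and 8 to 68 with a library left out. miR-375-3p was 0.23 with library weights and 0.047 with quantile normalization, against -0.81 to -0.13 with a library left out, and its permutation p on the linear scale was 0.429. Replicate numbers do not pair the mice: same-numbered libraries correlated at -0.04, -0.34, 0.46 and -0.35 for mRNA, and not every library correlated best with its own number. With the replicate number as a block 165 genes (162 lower) and 63 microRNAs passed.

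Over 81 single features and 1658 values, 1418 kept their side of the threshold, 207 lost it, 14 gained it and 19 turned in sign. The turns were of small or uneven differences. Against chow replicates 1 and 2, Sox9 was 0.13, Olfm4 -0.29 and Neat1 0.013. Against replicates 3 and 4, Defa17 was 0.24, Defa24 0.42, Lyz1 0.26, Defa30 0.33 and Gnat3 -0.12. Olfm4 was -0.14 with library weights and Gnat3 -0.0068 with quantile normalization. With a library left out the ranges were -0.31 to 0.34 for Gnat3, -0.19 to 0.17 for Sox9, -0.19 to 0.25 for Olfm4, -1.81 to 0.19 for Zg16 and -1.39 to 0.11 for Tff3. The causes were not tested.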

Other observations

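Among the 34 called microRNAs with a RefSeq sequence, 7 seeds were held by more than 1 member, and the members of each differed in the same direction. Besides AAAGUGC with 3 higher members and ACCCUGU with 2 lower ones, the seed AGCAGCA had 3 higher members and GCAGCAU had 3 higher members. The other 3 seeds had 2 higher members each. Most called microRNAs were higher, and microRNAs with these seeds that were not called are not counted. Some members differ in the locus number of their name alone, such as mir-24-1-3p and mir-24-2-3p, both at a log2 difference of 1.10. Members of a seed group can share a transcript or reads, so their common direction is no separate observation.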
